A study of Homo sapiens with 9 samples.

Results

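The Wnt pathway genes of U251 cells, a human glioblastoma cell line, were followed after knockdown of PTBP1, an RNA-binding protein that controls splicing. The set held 53 genes of the 22295 entries measured, 19932 of which were named by a gene symbol. The members were taken by symbol: all WNT genes (19), the Frizzled receptors FZD1 to FZD10 with the co-receptors LRP5 and LRP6 and the R-spondin receptor LGR4 (13), the secreted inhibitors DKK1 to DKK4 and SFRP1, SFRP2, SFRP4 and SFRP5 (8), the intracellular mediators CTNNB1, AXIN1, TCF7L1 and TCF7L2 (4), and the genes best known as targets or feedback regulators of the pathway, AXIN2, RNF43, ZNRF3, NKD1, NKD2, NOTUM, LGR5, LEF1 and TCF7 (9). RNA of bulk cultures was sequenced in 9 libraries, 3 in each of 3 groups. The group sh-Luci-3d carried a lentiviral short hairpin against luciferase, a gene the cells lack, and was taken 3 days post infection (dpi). The hairpin against PTBP1 was carried by sh-Ptbp1-3d, taken at 3 dpi, and by sh-Ptbp1-7d, taken at 7 dpi. All vectors also encoded the M-cherry reporter, and all cultures were placed from 2 dpi in a neuronal induction medium with forskolin, which raises cAMP, and dorsomorphin, a blocker of BMP receptors. There were 0 sh-Luci libraries of 7 dpi among those analysed here, so knockdown, days after infection and days in this medium cannot be told apart in any comparison with sh-Ptbp1-7d. Nothing in the labels says that the replicates were separate cultures, and the p-values measure the spread between these libraries only.

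Wnt proteins are secreted, lipid-modified ligands that bind a Frizzled receptor together with LRP5 or LRP6. In the canonical branch this stops the destruction complex, built on AXIN1, from marking β-catenin (the product of CTNNB1) for breakdown, and β-catenin then acts with the TCF/LEF factors on target genes such as AXIN2. Other ligands, WNT5A and WNT5B among them, act mainly through branches that do not need β-catenin. DKK1 blocks the co-receptors, the SFRP proteins bind Wnt ligands outside the cell, and NOTUM removes their lipid. The pathway is studied in glioblastoma for its part in the growth, invasion and stem-like state of tumour cells.

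Levels are given as FPKM, fragments scaled by transcript length and by library size, a unit that corrects for gene length and so allows levels to be compared between genes. Differences are given on the log2(FPKM + 0.1) scale, which understates the change of genes near 0. A gene counted as past both thresholds when its fold change on that scale was above 2 and its adjusted p (false discovery rate, FDR) was below 0.05 in the comparison made at 3 dpi or below 0.01 in either comparison with sh-Ptbp1-7d. The comparisons were fitted with limma over all 15551 entries whose mean reached 0.1 FPKM, and every adjusted p below is from that fit. Because the cultures were measured in bulk, fewer cells expressing a gene and less RNA of it per cell cannot be told apart.

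Of the 53 members, 35 passed the filter on low values and 18 did not, and 27 reached a group mean of at least 1 FPKM. The genes left untested were 9 of 19 ligands, 2 of 13 receptors, 4 of 8 secreted inhibitors, 0 of 4 mediators and 3 of 9 feedback targets. They were WNT1, WNT2, WNT3A, WNT4, WNT7A, WNT7B, WNT8A, WNT9B, WNT11, FZD9, FZD10, DKK2, DKK4, SFRP2, SFRP5, RNF43, NKD1 and NKD2, and none exceeded 0.267 FPKM in any library, the highest value being that of WNT4. WNT9B and FZD10 were listed at 0 in all 9 libraries. WNT11 was listed at 0 in the 6 libraries of 3 dpi and reached up to 0.154 FPKM at 7 dpi. WNT3A, the ligand most used to stimulate the canonical branch in culture, stayed at or below 0.0519 FPKM. WNT6 and WNT10A passed the filter only through sh-Ptbp1-7d, and NOTUM and WNT16 only through the libraries of 3 dpi, so that the choice of tested genes itself favoured a difference for these 4.

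PTBP1, the targeted gene, was at 115.7 ± 7.58 FPKM in sh-Luci-3d, 63.9 ± 2.67 in sh-Ptbp1-3d and 50.5 ± 0.645 in sh-Ptbp1-7d (mean ± SD, n = 3 here and below), with no overlap between the sh-Luci-3d libraries and the others. Its difference at 3 dpi was -0.85 (standard error 0.0725, adjusted p = 0.00314), and the adjusted p was 0.0821 when only these groups were fitted and 0.0579 without sh-Ptbp1-3d replicate 3. VIM, SOX2, SOX9, NES and CD44, markers that glioma lines keep, were all detected, whereas GFAP and S100B, the markers of mature astrocytes, had group means of at most 0.586 and 0.797 FPKM. The blood and immune markers summed to between 0.547 and 1.21 FPKM in a library, with CD3E and AIF1 at 0. sh-Ptbp1-3d replicate 3 stood apart in neuronal genes, with STMN2 at 11.5 FPKM against 0 in the other 8 libraries, and its effect on the member counts is given with them. Several markers moved from 3 to 7 dpi under the PTBP1 hairpin. VIM fell by 1.91 and CD44 by 1.41 while S100B rose by 2.08, all past both thresholds. Of the neuronal genes TUBB3 fell by 1.42, NEFL by 1.22 and NEFM by 1.53, also past both thresholds. MAP2 rose by 0.94 by the FDR alone. SNAP25 had means of 1.27 FPKM in sh-Luci-3d, 2.68 in sh-Ptbp1-3d and 4.32 in sh-Ptbp1-7d. Its rise of 0.72 against sh-Ptbp1-3d did not pass (adjusted p = 0.0177). Against sh-Luci-3d its rise of 1.69 was past both thresholds (adjusted p = 9.16e-05). All 8 proliferation markers were lower at 7 dpi than at 3 dpi by the FDR, their sum being 331.2 to 375.6 FPKM in the libraries of 3 dpi and 177.4 to 186.9 FPKM at 7 dpi. The part of these shifts in the results below was not tested.

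The promoters of DKK1, WNT3 and WNT6 are shown because the former pair had the smallest adjusted p among the members that fell at 7 dpi and WNT6 the largest rise. They are the 250 bases before the start site of the RefSeq annotation on GRCh38.p14, written 5′ to 3′ on the gene's strand, for DKK1 at chr10:52314031-52314280 on the plus strand, for WNT3 at chr17:46818693-46818942 on the minus strand and for WNT6 at chr2:218859555-218859804 on the plus strand. The RefSeq start used for WNT3 is not the first base of the gene in the GENCODE annotation cited below, whose longer model begins further upstream, so that the window lies inside that model. Capitals mark CTTTGA, a form of the core recognised by TCF/LEF factors, or its reverse complement TCAAAG. Other forms of this core were not searched for, so the matches are not a full account of such sites.
DKK1: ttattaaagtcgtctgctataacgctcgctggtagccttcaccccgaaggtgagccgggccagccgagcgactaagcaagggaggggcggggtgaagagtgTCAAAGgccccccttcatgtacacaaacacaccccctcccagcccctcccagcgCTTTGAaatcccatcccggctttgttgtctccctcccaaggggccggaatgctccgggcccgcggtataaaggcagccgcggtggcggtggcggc
WNT3: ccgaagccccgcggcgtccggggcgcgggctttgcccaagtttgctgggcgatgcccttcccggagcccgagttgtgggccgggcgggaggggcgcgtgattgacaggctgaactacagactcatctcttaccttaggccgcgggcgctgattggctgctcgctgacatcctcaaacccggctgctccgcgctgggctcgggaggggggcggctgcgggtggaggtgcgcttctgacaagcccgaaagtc
WNT6: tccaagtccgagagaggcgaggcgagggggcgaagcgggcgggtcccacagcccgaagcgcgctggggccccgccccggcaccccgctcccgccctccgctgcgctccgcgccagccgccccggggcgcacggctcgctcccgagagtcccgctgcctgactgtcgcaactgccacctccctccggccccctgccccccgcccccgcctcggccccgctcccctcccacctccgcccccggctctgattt
The DKK1 window held the motif 2 times, at 95 to 90 bases before the start on the gene's strand and at 149 to 144 bases before it on the opposite strand. The windows of WNT3 and WNT6 did not hold these letters. RefSeq promoters, running from 250 bases before to 50 bases after a start, were matched for 35 of the 53 members, and DKK1's was the only one of their 42 promoters with a match on either strand, against 12.9% of all 35116 promoters of this length. TGACG, the core of the cAMP response element, was found on either strand in 6 of the 42 promoters, those of CTNNB1, SFRP4, TCF7L2, WNT1, WNT2 and WNT5B, against 24.6% of all promoters, and none of these 6 held the other motif. These matches are descriptions of letters and not of binding.

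At 3 dpi no Wnt member was past the thresholds. Setting sh-Ptbp1-3d beside its control, the only comparison matched for time, asks what the hairpin against PTBP1 changed early on. Limma called 0 of 35 members, by both thresholds or by the FDR alone, beside 0.0129% of all entries tested by both thresholds and 0.0322% by the FDR alone. PTBP1 itself was 1.81-fold lower and passed by the FDR alone, so the count of 0 does not show that no member changed. By both thresholds the fit called only 2 of the 15551 entries tested. The authors reported far more differing genes for the same comparison, so the low counts belong to the fit used here and do not measure the knockdown. The cause of this gap was not tested. At an unadjusted p below 0.05 there were 7 of 35 members, against 7.24% of all entries. The groups did not overlap for 7 members, against 10.8% of all entries. WNT5B, FZD7, DKK3 and NOTUM were higher in all 3 sh-Ptbp1-3d libraries, where 5.86% of all entries were, and WNT8B, FZD4 and TCF7L2 lower, where 4.93% were. The median difference over the 35 members was 0.059, and close to 0 over all entries. The most abundant secreted member, DKK1, had a mean of 60.0 ± 2.19 FPKM with the control hairpin and of 60.1 ± 4.15 FPKM with the hairpin against PTBP1, a difference of 0.0024 with a 95% interval of -0.19 to 0.19. For CTNNB1 the difference was 0.030, with an interval of -0.13 to 0.19. For the low gene NOTUM the point value lay at the fold threshold of 2, yet its interval on the log2 scale ran from 0.19 to 1.81 and its adjusted p was 0.619.

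At 7 dpi 8 of the 35 members tested (22.9%) were past both thresholds against sh-Ptbp1-3d, where 14.2% of all entries were. WNT6, SFRP1 and FZD7 rose, where 8.31% of all entries did. WNT3, WNT9A, DKK1, SFRP4 and NOTUM fell, where 5.90% of all entries did. Of these members, WNT6 and NOTUM passed the filter on low values only through groups where they were high, which favoured their calls. By the FDR alone 17 members (48.6%) passed, against 35.8% of all entries, 11 higher and 6 lower, against 20.3% and 15.5%. The groups did not overlap for 20 members that were higher and 9 that were lower, against 35.3% and 27.0% of all entries (62.3% in either direction), and overlapped for 6. The median difference over the 35 members was 0.33, beside 0.092 over all entries. Without sh-Ptbp1-3d replicate 3 the count past both thresholds was again 8, with 2 higher and 6 lower. The split between higher and lower depended on the scaling of the libraries, with 5 higher and 5 lower when each library was scaled to the same sum (TPM), and 2 higher and 5 lower after median-ratio scaling or quantile normalization. FZD1 and FZD5 came past the fold threshold in the former case, and FZD7 came below it in the latter.

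Against sh-Luci-3d, with the same 7 dpi libraries, 10 members (28.6%) were past both thresholds, beside 14.6% of all entries. WNT5B, WNT6, FZD1, FZD7, FZD8 and SFRP1 rose, where 8.93% of all entries did, and WNT3, WNT9A, DKK1 and SFRP4 fell, where 5.68% did. The filter on low values favoured the call of WNT6 here too. The FDR alone gave 16 members (45.7%), beside 35.6% of all entries. Of these 12 were higher and 4 lower, where 20.6% of all entries were higher and 15.0% lower. The groups did not overlap for 16 members that were higher and 9 that were lower, against 32.8% and 23.1% of all entries (55.9% in either direction). Without sh-Ptbp1-3d replicate 3 there were 11 past both thresholds, 6 higher and 5 lower. These counts and those of the preceding comparison are not independent, since they share the sh-Ptbp1-7d libraries.

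**Figure D1:**
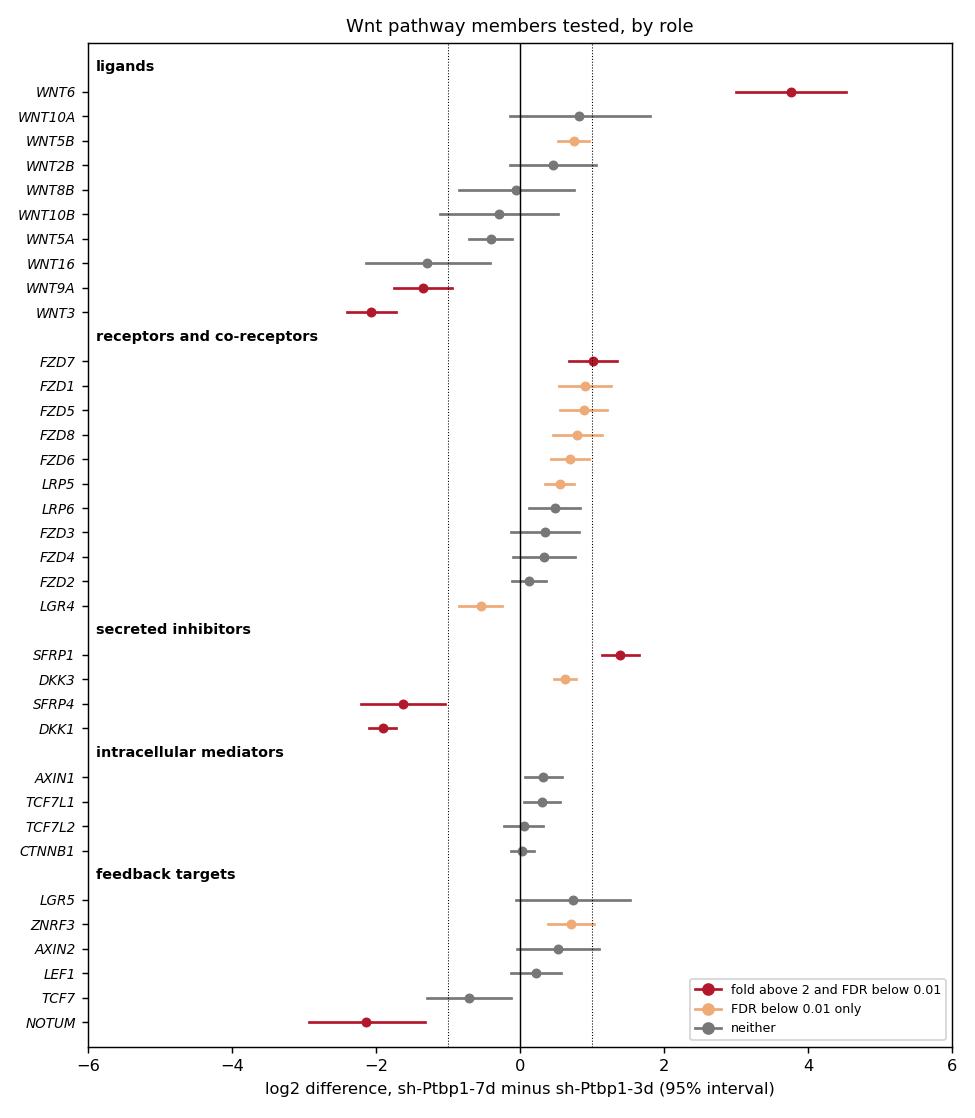
Difference between the 7 dpi and 3 dpi groups of the PTBP1 hairpin for the 35 Wnt members tested, grouped by role, on the log2(FPKM + 0.1) scale, with points for the limma estimate, bars for its 95% interval and dotted lines at a fold of 2. All 8 Frizzled receptors lie to the right of 0, from FZD2 at 0.12 to FZD7 at 1.01, while the ligands and the secreted inhibitors lie on both sides.

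Among the ligands, the level of WNT5B dominated throughout and rose, WNT3 and WNT9A fell, and WNT6 appeared at a low level. WNT5B, whose protein acts mainly without β-catenin, was at 25.8, 22.8 and 29.5 FPKM in the sh-Luci-3d libraries, 32.6, 30.0 and 31.9 in sh-Ptbp1-3d, and 50.2, 53.5 and 54.7 in sh-Ptbp1-7d. Its 7 dpi libraries lay above all 6 of the libraries of 3 dpi. The rise was 1.03 against sh-Luci-3d (standard error 0.0961, adjusted p = 9.06e-06), past both thresholds, and 0.74 against sh-Ptbp1-3d (adjusted p = 9.56e-05), past the FDR only. After median-ratio scaling the former was 0.93, below the fold threshold. The gene, at chr12:1529891-1647243 on the plus strand (GRCh38, GENCODE release 29, also for the genes below), shares 28173 bases with FBXL14 on the opposite strand. FBXL14 had a mean of 7.91 ± 0.974 FPKM in the control and of 11.0 ± 1.10 FPKM at 7 dpi, and since the sources used here do not say that the reads were counted by strand, reads of the shared stretch could have gone to either gene.

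WNT3, a canonical ligand, was at 2.58, 3.06 and 2.63 FPKM in sh-Luci-3d, 3.31, 3.09 and 2.53 in sh-Ptbp1-3d, and 0.584, 0.596 and 0.715 in sh-Ptbp1-7d. Each 7 dpi library was thus below every library of 3 dpi. It fell by 2.07 against sh-Ptbp1-3d (standard error 0.156, adjusted p = 1.91e-06) and by 1.97 against sh-Luci-3d (adjusted p = 2.66e-06), to 21.2% of the sh-Ptbp1-3d mean. WNT3 lies at chr17:46762506-46833154 on the minus strand, 46 bases from WNT9B, which was listed at 0 in all libraries.

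WNT9A, another ligand of the canonical branch, was at 1.03, 0.968 and 1.02 FPKM in sh-Luci-3d, 1.17, 1.15 and 0.996 in sh-Ptbp1-3d, and 0.318, 0.444 and 0.357 in sh-Ptbp1-7d. The groups of 3 dpi overlapped each other and not the 7 dpi group. It fell by 1.35 against sh-Ptbp1-3d (standard error 0.182, adjusted p = 0.000130) and by 1.24 against sh-Luci-3d (adjusted p = 0.000243). Its gene is at chr1:227918656-227947898 on the minus strand, 59152 bases from WNT3A, which was too low to be tested.

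WNT6 moved the other way from near 0, and it passed the filter on low values only through sh-Ptbp1-7d, which itself favoured a difference. It was at 0.0628, 0 and 0.0485 FPKM in sh-Luci-3d, 0.0367, 0 and 0 in sh-Ptbp1-3d, and 0.961, 1.88 and 1.53 in sh-Ptbp1-7d. The 7 dpi libraries differed among themselves but none came near those of 3 dpi. The rise was 3.76 against sh-Ptbp1-3d (standard error 0.345, adjusted p = 7.98e-06) and 3.49 against sh-Luci-3d (adjusted p = 1.35e-05). Because the reference values were at or near 0, the size of this difference was set by the pseudocount, and it ran from 1.26 with a pseudocount of 1 to 6.40 with one of 0.01. WNT6 lies at chr2:218859821-218874233 on the plus strand, and WNT10A, which follows it after 6129 bases on the same strand, was at 0.0699 ± 0.0611 FPKM in sh-Ptbp1-3d and 0.195 ± 0.0871 in sh-Ptbp1-7d, a difference of 0.82 that did not pass (adjusted p = 0.144).

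Of the 10 ligands tested, 2 rose and 2 fell by the FDR against sh-Ptbp1-3d, a share of 40.0% near the 35.8% of all entries, and the other 6 did not pass. WNT5A, which shares most of its sequence and its branch with WNT5B, was the only one of the 6 with a mean of at least 1 FPKM, at 2.35 ± 0.375 in sh-Luci-3d, 2.68 ± 0.0880 in sh-Ptbp1-3d and 1.99 ± 0.0204 in sh-Ptbp1-7d. Its difference against sh-Ptbp1-3d was -0.41 (95% interval -0.71 to -0.11, adjusted p = 0.0277), on the other side of 0 from that of WNT5B, and it passed the FDR after median-ratio scaling (-0.50, adjusted p = 0.00885) and quantile normalization (-0.59, adjusted p = 0.00259). WNT2B, WNT8B, WNT10A, WNT10B and WNT16 had group means between 0.0131 and 0.633 FPKM. Summed over all 19 ligands, the level was 33.6 ± 3.01 FPKM in sh-Luci-3d, 39.6 ± 1.77 in sh-Ptbp1-3d and 58.7 ± 2.58 in sh-Ptbp1-7d. WNT5B made up 77.3% ± 3.04, 79.5% ± 1.53 and 90.0% ± 0.364 of these sums, and WNT3 8.30% ± 1.51, 7.51% ± 0.919 and 1.08% ± 0.0940. These shares are descriptions with no test of their own.

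Of the Frizzled receptors, which bind Wnt ligands at the cell surface, 5 of the 8 that could be tested rose by the FDR against sh-Ptbp1-3d (FZD1, FZD5, FZD6, FZD7 and FZD8) and none fell, where 20.3% of all entries rose. FZD2, FZD3 and FZD4 did not pass, and FZD9 and FZD10 were untested. The 3 sh-Ptbp1-7d libraries lay above the 3 of sh-Ptbp1-3d for all 8, as they did for 35.3% of all entries, all 8 point values were above 0 under each of the 4 scalings run, and their median difference was 0.74, beside 0.092 over all entries. Only FZD7 was past the fold threshold as well in this comparison, and the number past both was 3 after TPM scaling and 0 after median-ratio scaling or quantile normalization. Against sh-Luci-3d the same 5 passed the FDR, where 20.6% of all entries rose, with FZD1, FZD7 and FZD8 past both thresholds. There 7 of the 8 point values were above 0 and that of FZD4 below it, and the groups did not overlap for 6 receptors, against 32.8% of all entries, and overlapped for FZD3 and FZD4.

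FZD7 was at 1.47, 1.44 and 1.85 FPKM in sh-Luci-3d, 1.85, 2.04 and 1.86 in sh-Ptbp1-3d, and 4.42, 4.17 and 3.35 in sh-Ptbp1-7d. It rose by 1.01 against sh-Ptbp1-3d (standard error 0.152, adjusted p = 0.000286) and by 1.27 against sh-Luci-3d (adjusted p = 5.31e-05). Its gene, at chr2:202034587-202038445 on the plus strand, is closely related in sequence to FZD1 and FZD2, so the authors' counting could have divided shared reads among them.

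FZD1 showed nearly the same course, with 1.71, 2.0 and 2.66 FPKM in sh-Luci-3d, 2.34, 2.38 and 2.65 in sh-Ptbp1-3d, and 5.25, 4.61 and 4.21 in sh-Ptbp1-7d. The lowest 7 dpi library was above the highest of 3 dpi. The rise was 0.90 against sh-Ptbp1-3d (standard error 0.164, adjusted p = 0.00103) and 1.12 against sh-Luci-3d (adjusted p = 0.000228). FZD8, at chr10:35638249-35642278 on the minus strand, was at 2.14, 2.41 and 3.30 FPKM in sh-Luci-3d, 3.40, 3.64 and 3.23 in sh-Ptbp1-3d, and 5.67, 6.34 and 6.02 in sh-Ptbp1-7d. Again no 7 dpi library overlapped those of 3 dpi. It rose by 0.79 against sh-Ptbp1-3d (standard error 0.152, adjusted p = 0.00137) and by 1.19 against sh-Luci-3d (adjusted p = 8.50e-05).

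The Frizzled genes of highest level were FZD6 and FZD2. FZD6 was at 12.3 ± 1.88 FPKM in sh-Luci-3d, 11.4 ± 0.953 in sh-Ptbp1-3d and 18.4 ± 0.520 in sh-Ptbp1-7d, a rise of 0.69 against sh-Ptbp1-3d (adjusted p = 0.000603). FZD2 had means of 10.7, 12.6 and 13.8 FPKM in the same order, and its difference of 0.12 against sh-Ptbp1-3d did not pass (95% interval -0.11 to 0.36, adjusted p = 0.360). The family was thus not uniform in size of change. FZD5 was at 2.05, 2.13 and 4.06 FPKM and rose by 0.88 (adjusted p = 0.000619), while FZD3 (1.44, 1.53 and 1.99 FPKM) and FZD4 (0.764, 0.581 and 0.762 FPKM) did not pass. Summed over the 10 genes, Frizzled level was 33.6 ± 0.854 FPKM in the control, 36.0 ± 1.65 at 3 dpi and 53.6 ± 1.96 at 7 dpi.

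The co-receptors LRP5 and LRP6, needed beside a Frizzled for the canonical branch, were both higher in every 7 dpi library than in any of 3 dpi, but the spread differed. LRP5 was at 7.39 ± 0.643, 8.01 ± 0.108 and 11.8 ± 0.706 FPKM and rose by 0.55 against sh-Ptbp1-3d (adjusted p = 0.000670). LRP6 was at 4.69, 4.90 and 3.80 FPKM in sh-Luci-3d, 4.97, 4.53 and 4.36 in sh-Ptbp1-3d, and 7.44, 7.26 and 5.01 in sh-Ptbp1-7d, the last of these lying close to the 3 dpi libraries. Its difference of 0.48 against sh-Ptbp1-3d (standard error 0.161, adjusted p = 0.0289) and of 0.53 against sh-Luci-3d (adjusted p = 0.0175) did not pass. Without sh-Ptbp1-7d replicate 3 these were 0.66 (adjusted p = 0.00313) and 0.72 (adjusted p = 0.00197), and both passed. LRP6 also passed with all libraries when the replicate number was a block, as given in the last section. Its call thus depended on this library and on the model.

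LGR4, a receptor for the R-spondins that strengthen Wnt responses, went the other way from the Frizzled genes. It was at 8.45, 7.14 and 6.56 FPKM in sh-Luci-3d, 8.33, 8.50 and 7.76 in sh-Ptbp1-3d, and 5.86, 6.30 and 4.65 in sh-Ptbp1-7d, with no overlap between the 7 dpi group and either other group. It fell by 0.55 against sh-Ptbp1-3d by the FDR alone (standard error 0.133, adjusted p = 0.00562). That call was lost under 8 of 20 alternative settings, among them TPM scaling and leaving out any 1 sh-Ptbp1-3d library or sh-Ptbp1-7d replicate 1 or 3, with adjusted p between 0.0117 and 0.0235. It was kept after median-ratio scaling (-0.64, adjusted p = 0.00113) and quantile normalization (-0.68, adjusted p = 0.000581). Against sh-Luci-3d the difference was -0.39 and did not pass (adjusted p = 0.0296). There it passed the FDR after median-ratio scaling (-0.49, adjusted p = 0.00520) and quantile normalization (-0.52, adjusted p = 0.00283), and not under TPM scaling (-0.32, adjusted p = 0.0860).

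**Figure D2:**
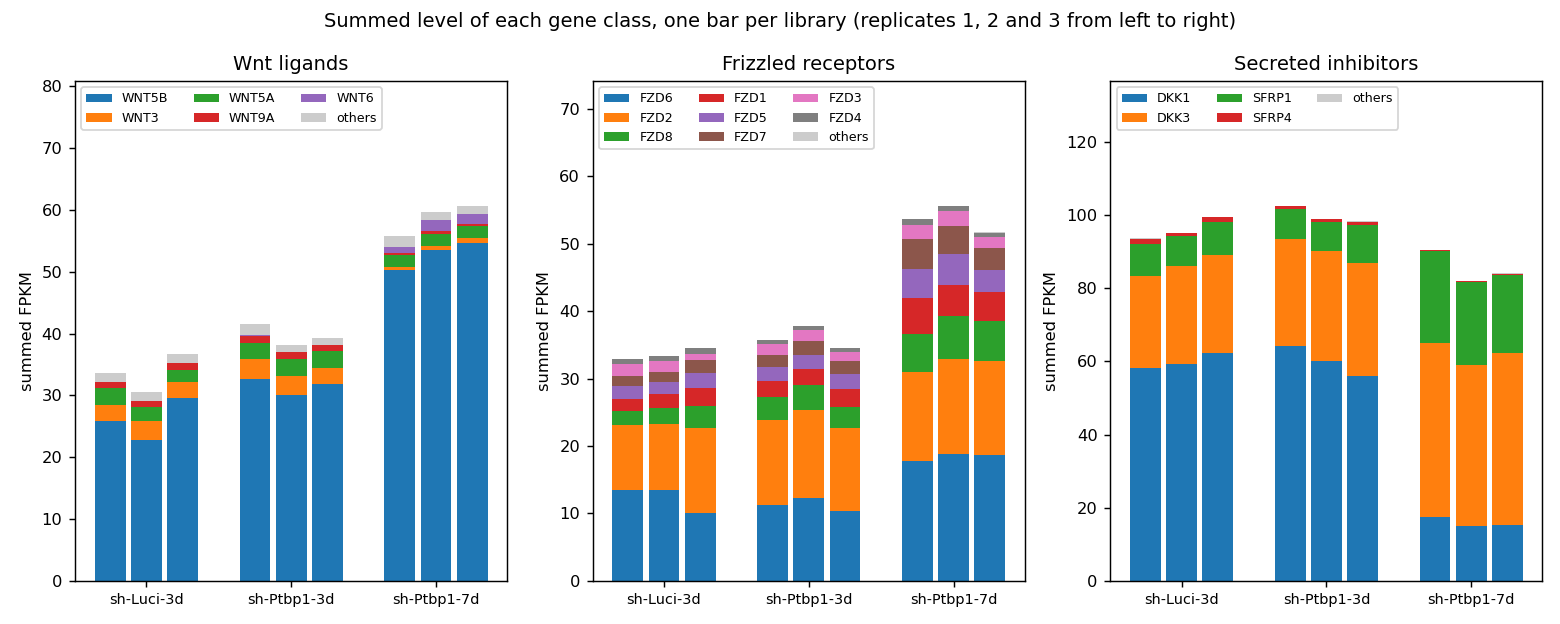
Summed FPKM of the Wnt ligands, Frizzled receptors and secreted inhibitors, with 1 bar per library (replicates 1, 2 and 3 from left to right in each group) divided by gene. The ligand and Frizzled sums are higher in sh-Ptbp1-7d, and DKK1 goes from the largest piece of the inhibitor bars at 3 dpi to 18.6% of them at 7 dpi.

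Among the genes grouped as secreted inhibitors, the one of highest level changed from DKK1 at 3 dpi to DKK3 at 7 dpi. DKK1, which keeps LRP5 and LRP6 from joining the receptor complex and is itself a known target of β-catenin, was at 58.2, 59.3 and 62.4 FPKM in sh-Luci-3d, 64.3, 60.2 and 56.0 in sh-Ptbp1-3d, and 17.5, 14.9 and 15.3 in sh-Ptbp1-7d. The 6 libraries of 3 dpi overlapped and the 3 of 7 dpi lay far below. It fell by 1.91 against sh-Ptbp1-3d (standard error 0.0855, adjusted p = 4.82e-08) and by 1.91 against sh-Luci-3d (adjusted p = 4.94e-08), to 26.4% of the sh-Ptbp1-3d mean. The gene is at chr10:52314296-52318042 on the plus strand, just after the promoter window printed above, and PRKG1-AS1 on the opposite strand covers 212 of its bases.

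SFRP1, a decoy that binds Wnt ligands, was at 8.93, 8.15 and 9.14 FPKM in sh-Luci-3d, 8.07, 7.96 and 10.4 in sh-Ptbp1-3d, and 25.1, 22.8 and 21.2 in sh-Ptbp1-7d. The highest value of 3 dpi, in sh-Ptbp1-3d replicate 3, was still below every value of 7 dpi. It rose by 1.39 against sh-Ptbp1-3d (standard error 0.117, adjusted p = 4.29e-06) and by 1.39 against sh-Luci-3d (adjusted p = 4.12e-06). SFRP4, of the same decoy family, fell. It was at 1.25, 0.860 and 1.25 FPKM in sh-Luci-3d, 0.879, 0.891 and 1.04 in sh-Ptbp1-3d, and 0.130, 0.291 and 0.318 in sh-Ptbp1-7d, again without overlap between 3 and 7 dpi. The fall was by 1.63 against sh-Ptbp1-3d (standard error 0.264, adjusted p = 0.000472) and by 1.85 against sh-Luci-3d (adjusted p = 0.000197). SFRP4 shares 46010 bases with EPDR1 on the opposite strand, a gene at 20.6 ± 0.662 FPKM in sh-Ptbp1-3d and 18.3 ± 0.461 in sh-Ptbp1-7d, and the limit given for WNT5B holds here too.

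DKK3, a divergent member of the DKK family, rose by the FDR alone, with 26.2 ± 0.968 FPKM in the control, 30.0 ± 0.800 at 3 dpi and 46.3 ± 1.95 at 7 dpi, and a difference of 0.62 against sh-Ptbp1-3d (adjusted p = 3.64e-05). DKK3 was grouped with the inhibitors by its symbol, and its action on the pathway was not measured. All 4 genes tested in this group passed the FDR against sh-Ptbp1-3d, 2 in each direction, where 20.3% of all entries were higher and 15.5% lower. Their sum with the 4 untested ones was 96.1 ± 3.07, 99.9 ± 2.19 and 85.5 ± 4.33 FPKM. In terms of mean shares of this sum, DKK1 went from 62.4% in sh-Luci-3d and 60.1% in sh-Ptbp1-3d to 18.6% in sh-Ptbp1-7d. DKK3 went from 27.2% and 30.0% to 54.1%, and SFRP1 from 9.09% and 8.82% to 27.0%. No test was made of these shares.

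In the values as deposited, no intracellular mediator passed a threshold against sh-Ptbp1-3d, although 35.8% of all entries passed the FDR. CTNNB1, the gene of β-catenin, had the highest level of all members, with 108.4, 103.1 and 99.2 FPKM in sh-Luci-3d, 104.7, 109.8 and 102.6 in sh-Ptbp1-3d, and 108.7, 113.8 and 101.3 in sh-Ptbp1-7d. The 3 groups overlapped. The difference of sh-Ptbp1-7d from the group at 3 dpi was 0.029 (95% interval -0.13 to 0.19, adjusted p = 0.767), and it was -0.059 after median-ratio scaling, so no direction can be given. These are values of RNA, whereas the pathway acts on the stability of the protein, which was not measured by this assay. AXIN1, the scaffold of the destruction complex, was at 7.15 ± 0.967, 7.72 ± 0.333 and 9.71 ± 0.829 FPKM and passed the FDR against sh-Luci-3d, with a rise of 0.44 (adjusted p = 0.00812), and not against sh-Ptbp1-3d, with 0.32 and an adjusted p of 0.0352. Its call against sh-Luci-3d was lost after median-ratio scaling (adjusted p = 0.0274) and quantile normalization (0.0353), and under TPM scaling it also passed against sh-Ptbp1-3d (0.43, adjusted p = 0.00905). The TCF factors TCF7L1 (3.14, 3.17 and 3.94 FPKM) and TCF7L2 (13.9, 11.1 and 11.4 FPKM) did not pass in either comparison.

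The feedback targets did not move together. AXIN2, the target most often read as a sign of canonical signalling, was at 0.773, 0.479 and 1.09 FPKM in sh-Luci-3d, 1.14, 0.771 and 1.05 in sh-Ptbp1-3d, and 1.56, 1.45 and 1.33 in sh-Ptbp1-7d. Every 7 dpi library was above those of 3 dpi, among which the spread was wide. The difference was 0.52 against sh-Ptbp1-3d (standard error 0.258, 95% interval -0.05 to 1.09, adjusted p = 0.117) and 0.87 against sh-Luci-3d (standard error 0.258, adjusted p = 0.0166), neither past the threshold of 0.01. Without sh-Luci-3d replicate 3 the latter was 1.12 (adjusted p = 0.00319) and passed. This was the only 1 of 20 alternative settings under which AXIN2 passed against sh-Luci-3d, and against sh-Ptbp1-3d its call was the same under all 20. The cause of the spread of AXIN2 was not tested. An overlapping gene on the same strand, AC004805.1, was listed at 0 in all libraries.

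NOTUM, a secreted enzyme that inactivates Wnt ligands, was low throughout, with 0.178, 0.0913 and 0.321 FPKM in sh-Luci-3d, 0.592, 0.354 and 0.472 in sh-Ptbp1-3d, and 0, 0.0468 and 0.0444 in sh-Ptbp1-7d. The 3 groups did not overlap, and sh-Ptbp1-3d was the highest. NOTUM passed the filter on low values only through the libraries of 3 dpi, which itself favoured a fall at 7 dpi. It fell by 2.14 against sh-Ptbp1-3d (standard error 0.365, adjusted p = 0.000664), a size that ran from -0.51 with a pseudocount of 1 to -3.91 with one of 0.01. Against sh-Luci-3d the difference of -1.13 did not pass (adjusted p = 0.0240).

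ZNRF3, a membrane ubiquitin ligase that removes Frizzled receptors, was at 1.59 ± 0.101, 1.47 ± 0.155 and 2.47 ± 0.281 FPKM and rose by 0.71 against sh-Ptbp1-3d by the FDR alone (adjusted p = 0.00231). LEF1, a TCF/LEF factor and target, had means of 2.42, 2.17 and 2.55 FPKM, with a difference of 0.22 against sh-Ptbp1-3d that did not pass (adjusted p = 0.270). TCF7, a factor of the same family, had means of 0.930, 1.05 and 0.585 FPKM and a difference of -0.71 (adjusted p = 0.0437) that also missed the threshold. LGR5, a stem cell marker of the intestine, stayed at or below 0.213 FPKM in every library. In all, 1 of the 6 feedback targets tested rose and 1 fell by the FDR against sh-Ptbp1-3d, a share of 33.3% near the 35.8% of all entries, and the remaining 4 did not pass.

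A further 61 genes of the pathway that are not members were counted in the same fits. They comprise ligand secretion and R-spondins, other receptors, other inhibitors, the destruction complex with Dishevelled, nuclear cofactors, planar cell polarity and other reported targets, and 47 of them could be tested. At 3 dpi 0 of 47 were called by limma under either rule. Of all entries 0.0129% were called by both thresholds and 0.0322% by the FDR alone. The limit given for the low counts of members at 3 dpi holds here too. At an unadjusted p below 0.05 there were 2 of 47, against 7.24% of all entries. At 7 dpi 5 (10.6%) rose past both thresholds against sh-Ptbp1-3d and 0 fell, where 8.31% of all entries rose and 5.90% fell. Against sh-Luci-3d 7 (14.9%) rose past both thresholds and 0 fell, where 8.93% of all entries rose and 5.68% fell. By the FDR against sh-Ptbp1-3d 18 (38.3%) passed, near the 35.8% of all entries. Of these 16 were higher and 2 lower, where 20.3% of all entries were higher and 15.5% lower. The higher calls were 88.9% of these 18, and the share was 75.0% after median-ratio scaling (15 higher and 5 lower) and 66.7% after quantile normalization (14 higher and 7 lower).

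TLE2, a Groucho corepressor that TCF/LEF factors recruit, had the largest change of these genes. It was at 0.324, 0.198 and 0.561 FPKM in sh-Luci-3d, 0.383, 0.398 and 0.679 in sh-Ptbp1-3d, and 6.28, 6.68 and 7.58 in sh-Ptbp1-7d, with the 7 dpi libraries close together and far above the rest. It rose by 3.60 against sh-Ptbp1-3d (standard error 0.289, adjusted p = 3.02e-06). TLE1, of the same family, was at 13.2 ± 0.202, 14.5 ± 0.510 and 29.4 ± 2.33 FPKM and rose by 1.01 (adjusted p = 3.02e-06), whereas TLE3 and TLE4 did not pass. APCDD1, a membrane inhibitor of the pathway, rose by 1.52 from 0.178 to 0.697 FPKM (adjusted p = 0.00461), and AMER1, a regulator of the destruction complex, by 1.41 from 0.653 to 1.92 FPKM (adjusted p = 0.000223). ROR2, a receptor for WNT5A, was at 0.0649 FPKM in sh-Ptbp1-3d and 0.283 in sh-Ptbp1-7d, and its difference of 1.22 lay just inside the FDR threshold (adjusted p = 0.00989). ROR2 passed the filter on low values only through the 7 dpi group, and its call was lost under TPM scaling (adjusted p = 0.0128), median-ratio scaling (0.0117) and quantile normalization (0.0194). Quantile normalization also ended the call of APCDD1 (adjusted p = 0.0120), and TLE1 lay below the fold threshold after median-ratio scaling (0.92) and quantile normalization (0.97).

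Of the 6 other reported targets tested, 3 rose by the FDR alone against sh-Ptbp1-3d and 0 fell, where 20.3% of all entries rose and 15.5% fell. EPHB2 rose by 0.73 (adjusted p = 0.00122) and FOSL1 by 0.82 (adjusted p = 0.000246). CCND1, which encodes cyclin D1, had means of 10.5, 10.9 and 19.4 FPKM and rose by 0.83 (adjusted p = 1.62e-05), while the 8 proliferation markers were lower in the same libraries. TNFRSF19 (-0.52), BAMBI (-0.62) and PPARD (0.066) did not pass. WLS, which carries Wnt ligands to the cell surface, was at 32.9, 31.4 and 33.5 FPKM and its difference of 0.096 did not pass (adjusted p = 0.338). The R-spondins RSPO1 to RSPO4 were too low to be tested. Leaving out 1 library moved the count of 5 past both thresholds to 2 (without sh-Ptbp1-3d replicate 1) or 3 (without sh-Ptbp1-3d replicate 2 or any 1 sh-Ptbp1-7d library).

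**Figure D3:**
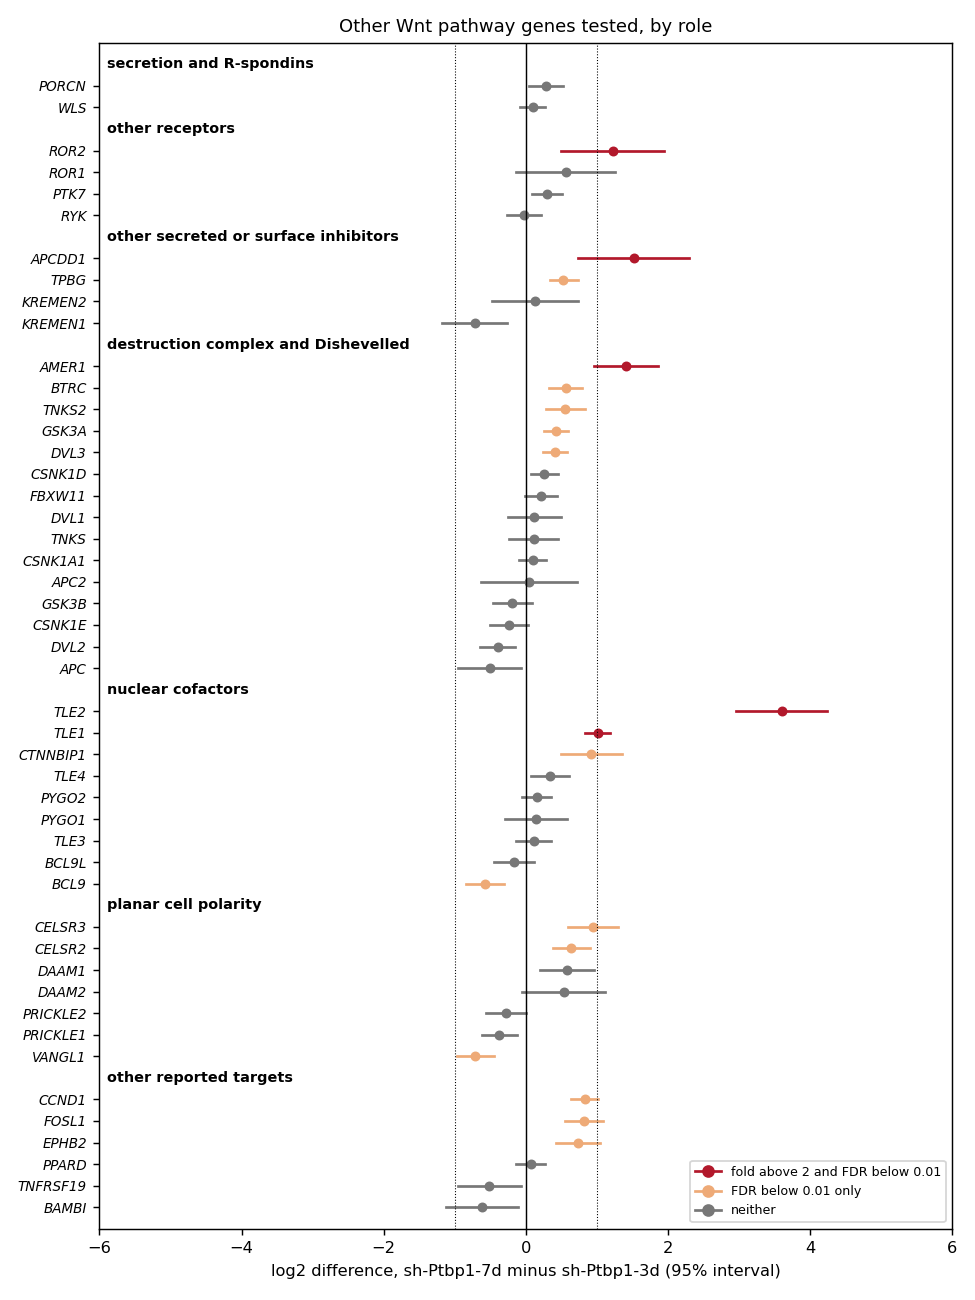
Difference between the 7 dpi and 3 dpi groups of the PTBP1 hairpin for the 47 other Wnt pathway genes tested, grouped by role, on the log2(FPKM + 0.1) scale, with points for the limma estimate, bars for its 95% interval and dotted lines at a fold of 2. TLE2, at 3.60, lies well to the right of all others, and the 5 genes past both thresholds are all on the side of higher levels at 7 dpi.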

How the data were processed

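The data were gene-level RNA-seq values of 9 libraries, 3 in each of 3 groups, grouped by title. FPKM values, given per symbol or assembled locus, are those the authors deposited. Their processing notes name HISAT2 and GRCh38, and the version of the aligner and the strandedness of counting are not given in the sources used here. FPKM values showed no whole-read steps, so the depth is unknown, and column sums were 367412 to 404922 FPKM. A deposited file of assembled transcript positions, a kind of value other than expression, served only to check the build, 49.6% of its 43315 exons being identical to GENCODE 29 exons, and to look for loci overlapping a member.

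Entries whose mean reached 0.1 FPKM were analysed as log2(FPKM + 0.1) with limma 3.58.1 (R 4.3.3), all 9 libraries in one model with an intensity trend and Benjamini-Hochberg adjustment over all 15551 entries. The fit was tested on simulated data. Full values were given for members past both thresholds in a 7 dpi comparison and for AXIN2, CTNNB1, LRP6 and LGR4, and of other pathway genes for those past both against sh-Ptbp1-3d. FZD4, WNT10A, LGR5, TLE3, TLE4, CCND1, the other reported targets tested, WLS and the overlapping genes were named after their values were seen. Members and lists were chosen with earlier results of these data known. Alternatives were pseudocounts, filters, scalings, no assembled loci, only the groups compared, no intensity trend, a replicate block, leaving out each library and the FDR alone. Figures were drawn with matplotlib 3.10.9.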

Additional observations from a re-analysis of the deposited data

How the results depend on the processing

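At 3 dpi the count of members called stayed at 0 under all 21 alternatives and that of other pathway genes at 0 under all 20. For the 7 dpi group set against sh-Ptbp1-3d, the 8 of 35 members past both thresholds became 4 of 35 with a pseudocount of 1. The count was 4 of the 23 members whose mean reached 1 FPKM, 17 of 35 by the FDR alone, and 7 to 9 when 1 library was left out. The share of all entries past both thresholds is not given for the alternatives. Against sh-Luci-3d the 10 became 5 with a pseudocount of 1 and 16 by the FDR alone, and 9 to 11 with 1 library left out. A larger pseudocount shrinks the fold of low genes by construction. Of the 47 other pathway genes tested, the 5 past both thresholds against sh-Ptbp1-3d became 1 and 3 with pseudocounts of 1 and 0.01. The count was 3 of the 40 genes whose mean reached 1 FPKM. It was 3 after median-ratio scaling and 2 after quantile normalization, and 2 to 5 with 1 library left out. Against sh-Luci-3d the 7 (14.9%, near the 14.6% of all entries in either direction) became 3 with a pseudocount of 1 and 5 to 8 with 1 library left out. CTNNB1 changed sign, to -0.059 after median-ratio scaling and -0.010 without sh-Ptbp1-7d replicate 2 against sh-Ptbp1-3d (leaving out 1 library gave -0.010 to 0.074), and to -0.041 after median-ratio scaling against sh-Luci-3d. The cause was not tested for these shifts other than the pseudocount's. WNT3, WNT5B, WNT6, WNT9A, FZD1, FZD7, FZD8, DKK1, SFRP1 and SFRP4 kept their direction and their side of the FDR threshold under every alternative run in both 7 dpi comparisons. With the replicate number as a block, 8 and 10 members were past both thresholds at 7 dpi, LRP6 passed the FDR (adjusted p = 0.00920 against sh-Ptbp1-3d and 0.00543 against sh-Luci-3d) and PTBP1 at 3 dpi did not (0.0583). Same-numbered libraries correlated at only -0.0317 to 0.0512 in their deviations from the group means. This check cannot exclude a culture or batch shared under a number. The scalings moved the median difference of all entries against sh-Ptbp1-3d from 0.0924 to 0.195 (TPM), 0.0102 (median-ratio) and -0.00871 (quantile). The unknown depth limits most what can be said of genes below 1 FPKM.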
